A study of Homo sapiens with 12 samples.

Results

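Dual specificity phosphatases that act on MAP kinases were followed in HK2 cells, an immortalised line of human kidney proximal tubule epithelium. The set is not complete, and DUSP3 and DUSP9 come under other observations. The members chosen were 10 transcripts, DUSP1, DUSP2, DUSP4, DUSP5, DUSP6, DUSP7, DUSP8, DUSP10, DUSP14 and DUSP16. Members were the rows of the deposited table with these gene symbols, and all 10 were found among 58278 listed genes. All 10 also passed the filter on low counts, which left 24342 genes, although DUSP4 passed it through the treated groups alone. Cells were left untreated (Ctrl) or given TNF-α, an inflammatory cytokine, at 5 ng/ml for 3 h (TN). In the other 4 groups, the short-chain fatty acids (SCFAs) propionate (15 mM) and butyrate (3 mM) were applied for 24 h, either ahead of that stimulation (PRTN and BUTN) or following it (TNPR and TNBU). Each of the 6 groups had 2 libraries, which the study calls biological replicates of a single line. No group received an SCFA without TNF-α, and no group was collected as late as TNPR and TNBU after TNF-α alone, so the effect of the SCFA and that of the later collection cannot be told apart in those groups. A general treatment text in the labels names other compounds, whereas the label of every treated library names TNF-α and, where given, the SCFA.

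MAP kinases (ERK, JNK and p38) are switched on by phosphorylation of a threonine and a tyrosine, and dual specificity phosphatases remove both phosphates. Many of these phosphatases are made in response to the same MAP kinase signals that they end, which makes them a feedback arm of the pathway, and TNF-α activates JNK, p38 and ERK in epithelial cells. DUSP1, DUSP2, DUSP4 and DUSP5 are inducible nuclear enzymes. DUSP6 and DUSP7 are cytoplasmic and act mainly on ERK, as DUSP5 does in the nucleus. DUSP8, DUSP10 and DUSP16 act mainly on JNK and p38, and DUSP14 is a small enzyme without the MAP kinase binding domain of the others.

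Promoter windows of the human RefSeq assembly GRCh38.p14 were searched for 8 of the members, and 4 of them are shown because their transcripts carry the main patterns: the strongest rise with an SCFA among members over 10 CPM (DUSP6), the fall (DUSP16), the highest level (DUSP1) and the rise with TNF-α alone (DUSP10). Each run is the 250 bases before the annotated start, 5′ to 3′ on the gene's strand, and capitals mark a full cAMP response element (TGACGTCA) or a GC box (GGGCGG) read on either strand.
DUSP6, chr12:89352502-89352751, minus strand: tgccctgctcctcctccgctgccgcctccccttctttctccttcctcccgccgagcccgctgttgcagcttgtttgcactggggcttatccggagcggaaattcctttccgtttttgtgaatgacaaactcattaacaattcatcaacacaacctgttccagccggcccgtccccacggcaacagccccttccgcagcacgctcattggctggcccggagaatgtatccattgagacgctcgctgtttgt
DUSP16, chr12:12562864-12563113, minus strand: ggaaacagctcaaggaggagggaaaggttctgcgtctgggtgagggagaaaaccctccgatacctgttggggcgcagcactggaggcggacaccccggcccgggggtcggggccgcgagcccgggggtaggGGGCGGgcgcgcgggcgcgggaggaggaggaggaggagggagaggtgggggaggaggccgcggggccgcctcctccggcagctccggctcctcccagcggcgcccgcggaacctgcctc
DUSP1, chr5:172771196-172771445, minus strand: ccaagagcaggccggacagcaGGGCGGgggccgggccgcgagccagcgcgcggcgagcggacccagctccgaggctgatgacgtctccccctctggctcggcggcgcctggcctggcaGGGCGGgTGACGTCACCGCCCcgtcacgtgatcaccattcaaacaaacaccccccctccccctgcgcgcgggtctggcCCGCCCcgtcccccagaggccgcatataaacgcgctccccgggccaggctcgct
DUSP10 (the first of 2 windows), chr1:221742090-221742339, minus strand: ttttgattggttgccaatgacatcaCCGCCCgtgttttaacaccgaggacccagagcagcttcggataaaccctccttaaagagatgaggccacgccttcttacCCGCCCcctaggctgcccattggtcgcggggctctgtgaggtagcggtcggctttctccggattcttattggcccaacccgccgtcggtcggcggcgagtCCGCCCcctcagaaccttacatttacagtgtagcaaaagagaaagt
In windows that ran on for 50 bases past the start, the full cAMP response element was present in DUSP1 (125 to 118 bases before the start, between a pair of GC boxes that it does not overlap) and in DUSP8, against 1.85% of the 35116 human windows. GC boxes were present in 7 of the 8 members and in 45.0% of all windows, and DUSP6 was the member without one. An AP-1 site (TGANTCA), the κB consensus and the CArG box, all searched on both strands, were found in 0 of the 8, against 7.71%, 5.91% and 1.29% of all windows. These matches describe letters only.

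The libraries held 27269986 to 33851130 expected counts, and levels are given as CPM, read counts relative to the library's total, scaled by TMM factors of 0.913 to 1.06. A count of 3, taken as the limit of detection, was worth 0.0867 to 0.112 CPM, which covers counting error only. To be called higher or lower, a gene had to differ by more than 1.5-fold with a limma-voom p, adjusted over the 24342 genes by Benjamini-Hochberg, under 0.05. Of the labelled tissue's markers, the summed CPM of 7 epithelial genes was 1526 to 1594 in Ctrl and TN and 1969 to 2566 in the SCFA groups. These genes did not move together: KRT18, KRT19 and CDH1 were called higher than in TN in all 4 SCFA groups. EPCAM (−1.91 to −1.37) and CDH2 (−1.09 to −0.995) were called lower in all 4, as log2 fold changes. The summed CPM of 10 proximal tubule genes was 184 to 229 in Ctrl and TN and 82.4 to 111 in the SCFA groups. LRP2, SLC34A1, SLC22A6 and SLC22A8 stayed under 1 CPM in all 12 libraries. The single proximal tubule genes did not follow that sum: of 8 tested, CUBN, AQP1, ANPEP and ALPL were called higher than in TN in all 4 SCFA groups and GGT1 lower. LRP2 was called higher as well, at log2 fold changes of 4.62 to 5.60. Being under 1 CPM throughout, it was near the limit of detection in TN, so its call is given no weight. The list's median log2 fold change, LRP2 included, was 2.53, 2.81, 2.21 and 2.58 in PRTN, BUTN, TNPR and TNBU. The 7 leukocyte markers summed to 28.0 to 53.0 CPM, with PTPRC, CD3E and ITGAM under 1 CPM in every library. The 7 fibroblast and endothelial markers summed to 44.5 to 53.7 CPM in Ctrl and TN and 156 to 214 with an SCFA, with PDGFRA under 1 CPM throughout. COL1A1 (log2 fold changes of 1.96 to 2.24), PECAM1, CDH5 and VWF (5.41 to 5.79) were called higher than in TN in all 4 SCFA groups. DCN was called lower in all 4, at −0.975 to −0.805. PDGFRA was called higher as well, and its call is given no weight, as for LRP2. Of all genes, 18.4% were called higher and 11.9% lower in all 4. The part of all these markers in the results that follow was not tested. These are bulk samples, in which fewer cells making a transcript and less of it per cell cannot be told apart.

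TNF-α alone raised 2 of the 10 phosphatases, DUSP10 and DUSP5, and lowered 0 of them. Over all genes, 0.764% were called higher and 0.534% lower in TN against Ctrl, and the median log2 fold change was 0.34 over the members and −0.01 over all genes. DUSP10, which acts on p38 and JNK, measured 16.0 and 16.6 CPM in Ctrl and 30.8 and 29.5 CPM in TN. The groups lay well apart, with 16.3 ± 0.373 CPM in Ctrl and 30.2 ± 0.909 CPM in TN (SD, n = 2 each). Its log2 fold change was 0.89 (SE 0.09, limma-voom adjusted p = 0.000194), and it is among the genes that the study listed as induced by TNF-α from these same samples, so that list is no independent evidence.

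DUSP5, a nuclear phosphatase of ERK, measured 16.9 and 19.1 CPM in Ctrl and 41.7 and 24.5 CPM in TN. Both TN libraries lay above both Ctrl libraries, but they differed 1.70-fold from each other, more than 99.2% of genes did between these libraries. The log2 fold change of 0.83 (SE 0.21) had a limma-voom adjusted p of 0.0485. It fell to 0.45 without TN replicate 1 and rose to 1.22 without TN replicate 2, and the call was lost in 13 of 21 alternative analyses. The other 8 members were not called. Their log2 fold changes were 0.40 for DUSP14, 0.35 for DUSP2, 0.32 for DUSP8, 0.28 for DUSP7, and 0.21 for each of DUSP1 and DUSP16. DUSP6 differed by −0.01 (SE 0.13) with a 95% interval of −0.30 to 0.28, and DUSP4 had 1 count in 1 TN library and 0 in the other and in Ctrl.

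**Figure D1:**
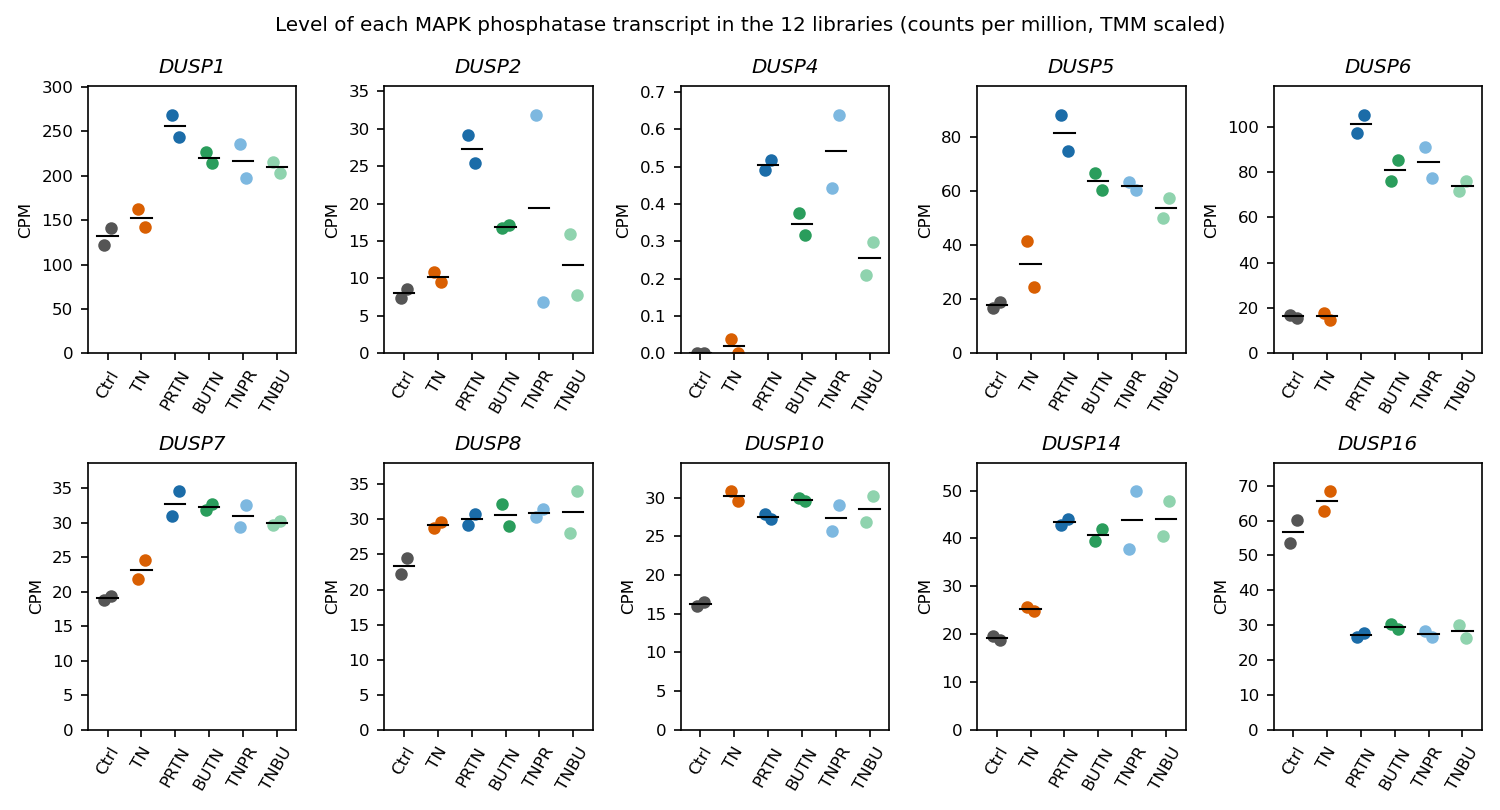
Level of each phosphatase transcript in CPM (linear axes from 0) in the 12 libraries, with a point per library and a line at the mean of each group. DUSP6 stands at 14.8 to 17.8 CPM in the 4 libraries without an SCFA and at 71.4 to 105 CPM in the 8 with one, DUSP16 shows the opposite order, and DUSP10 is lower in Ctrl than in all other groups.

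DUSP5, DUSP6 and DUSP14 were called higher in every SCFA group than in TN, and DUSP16 was called lower in every one of them. DUSP4 was also called higher, but it had to differ, having passed the filter only through the SCFA groups, and is left out of the counts that follow, a choice made after its values were seen. Among the other 9 members, PRTN had 5 higher and 1 lower, since DUSP1 and DUSP2 were also called there, where 23.9% of all genes were called higher and 16.7% lower. BUTN had 3 higher and 1 lower, against 23.1% and 14.8% of all genes. TNPR and TNBU had the same counts, against 24.9% and 16.9% of all genes in TNPR and 25.0% and 16.5% in TNBU. Called in the same direction in all 4 contrasts were 3 of the 9 upwards and 1 downwards, beside 18.4% and 11.9% of all genes tested. Their median log2 fold change was 0.75, 0.54, 0.50 and 0.37 in PRTN, BUTN, TNPR and TNBU, and that of all genes was 0.09, 0.08, 0.12 and 0.09. The 4 contrasts share the TN libraries, and the changes that many genes showed with an SCFA set the background against which the members' counts stand.

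DUSP6, the cytoplasmic phosphatase of ERK, showed the largest change among the members with over 10 CPM. It measured 16.9 and 15.7 CPM in Ctrl and 17.8 and 14.8 CPM in TN. With propionate it measured 97.1 and 105 CPM in PRTN and 91.1 and 77.4 CPM in TNPR, and with butyrate 76.1 and 85.3 CPM in BUTN and 71.4 and 76.0 CPM in TNBU. No SCFA library came near the range of the libraries without one. Against TN the log2 fold changes of PRTN, BUTN, TNPR and TNBU were 2.64, 2.32, 2.38 and 2.19 (SE 0.12 in each), with limma-voom adjusted p of 2.74e-09, 1.17e-08, 6.33e-09 and 1.54e-08. All 4 calls held in the 21 alternatives. Its expected counts were not whole numbers, so some reads may be shared with another gene. Its promoter, printed above, was the one with no GC box among the 8 members searched, which did not include DUSP4 and DUSP5. Any link to its level was not tested.

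DUSP5 rose further with an SCFA. It measured 88.3 and 74.8 CPM in PRTN, 66.9 and 60.4 CPM in BUTN, 63.6 and 60.4 CPM in TNPR and 50.1 and 57.7 CPM in TNBU, all above the higher TN library at 41.7 CPM. The log2 fold changes against TN were 1.35, 0.99, 0.96 and 0.75 (SE 0.18 in each), with limma-voom adjusted p of 2.74e-05, 0.000427, 0.000513 and 0.00328. Without TN replicate 2 they were 0.58 in BUTN, 0.54 in TNPR and 0.35 in TNBU, under the 1.5-fold limit, and 0.94 in PRTN, still called. Against Ctrl, where the replicates were close, they were 2.18, 1.82, 1.79 and 1.58.

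DUSP14, the small atypical phosphatase, measured 19.7 and 18.7 CPM in Ctrl, 25.7 and 24.9 CPM in TN and 37.8 to 49.9 CPM in the 8 SCFA libraries. No SCFA library reached down to the TN values. The log2 fold changes against TN were 0.78, 0.69, 0.78 and 0.80 in PRTN, BUTN, TNPR and TNBU (SE 0.12 in each), and the largest limma-voom adjusted p was 0.000436. The change in TNPR fell to 0.58, just under the limit, without TNPR replicate 2. DUSP14 is encoded on chromosome 17, at positions 37489891 to 37513501 of GRCh38.

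DUSP4, an inducible nuclear phosphatase, was at the edge of detection. Its counts were 0 and 0 in Ctrl and 1 and 0 in TN. With propionate they were 17 and 17 (PRTN) and 15 and 20 (TNPR), and with butyrate 12 and 11 (BUTN) and 6 and 9 (TNBU), at most 0.64 CPM. All SCFA libraries were above all others. Against a floor of 3 counts per Ctrl library, PRTN was at least 4.79-fold higher, and the bounds were 5.15-fold for TNPR, 3.29-fold for BUTN and 2.42-fold for TNBU. The summed counts were 34 in PRTN, 35 in TNPR, 23 in BUTN and 15 in TNBU, against 1 in TN. These values describe the counts only, and no interval or p is given for DUSP4, for the reason stated above.

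DUSP16, which acts on JNK and p38, was the member that fell. It measured 53.5 and 60.2 CPM in Ctrl and 62.6 and 68.5 CPM in TN, and 26.6 and 27.9 CPM in PRTN, 30.4 and 28.8 CPM in BUTN, 28.4 and 26.6 CPM in TNPR and 30.2 and 26.4 CPM in TNBU. The highest SCFA library stood well under the lowest library without an SCFA. The log2 fold changes against TN were −1.27, −1.15, −1.25 and −1.22 (SE 0.09 in each), with limma-voom adjusted p of 1.08e-07, 2.90e-07, 1.16e-07 and 1.82e-07, and all 4 calls held in the 21 alternatives. Against Ctrl they were −1.06, −0.94, −1.05 and −1.01. DUSP16 lies on chromosome 12, as DUSP6 does, at positions 12473282 to 12562863 against 89347235 to 89352501, so the 2 genes are not neighbours.

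DUSP1, the nuclear phosphatase of p38 and JNK that is induced early by many stimuli, was the most abundant member in every library, with 38.5% to 43.5% of the members' summed CPM. It measured 122 and 141 CPM in Ctrl, 162 and 143 CPM in TN, 269 and 244 CPM in PRTN, 226 and 215 CPM in BUTN, 236 and 197 CPM in TNPR, and 215 and 203 CPM in TNBU. All SCFA libraries lay above all others. Against TN it was called in PRTN alone, at a log2 fold change of 0.75 (SE 0.10, limma-voom adjusted p = 2.49e-05). In BUTN, TNPR and TNBU the values were 0.54, 0.50 and 0.46, with adjusted p of 0.000485, 0.000698 and 0.00144, and missed the fold limit only. The difference between PRTN and BUTN was not tested, because the doses of the 2 SCFAs differ. Against Ctrl it was called in all 4 groups, at 0.96, 0.75, 0.72 and 0.67. The TNPR call was lost without TNPR replicate 1 and the TNBU call without Ctrl replicate 1, at 0.55 and 0.57.

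**Figure D2:**
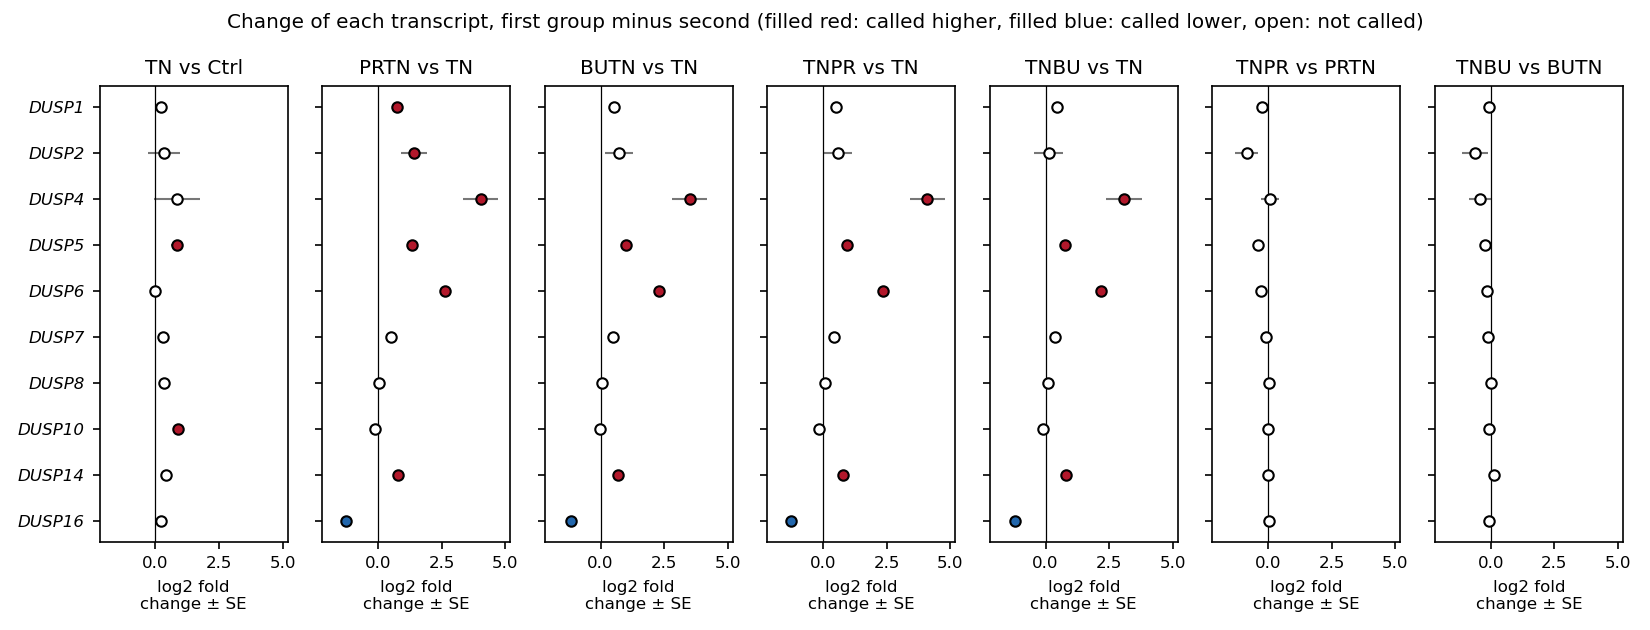
Log2 fold change (first group minus second) with its SE for the 10 phosphatases in 7 contrasts, filled where called and open where not. DUSP6, with 2.19 to 2.64, and DUSP16, with −1.27 to −1.15, stand on opposite sides of 0 in all 4 contrasts with TN, and no point is filled in the 2 contrasts of SCFA after against before TNF-α.

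DUSP2, an early nuclear phosphatase best known from leukocytes, varied more between replicates than any other member above 1 CPM. It measured 7.42 and 8.57 CPM in Ctrl, 10.8 and 9.59 CPM in TN, 29.1 and 25.4 CPM in PRTN, 16.7 and 17.1 CPM in BUTN, 31.9 and 6.91 CPM in TNPR, and 15.9 and 7.80 CPM in TNBU. The 2 TNPR libraries were 4.61-fold apart, further than 99.9% of genes, and held both the lowest and the highest value of the 12 libraries. The TNBU libraries were 2.03-fold apart. PRTN was called against TN at a log2 fold change of 1.42 (SE 0.52, limma-voom adjusted p = 0.0328). That call was lost when any of the 4 libraries compared was left out, in DESeq2 and with the loosest filter (adjusted p over all alternatives 0.000119 to 0.152). BUTN, TNPR and TNBU gave 0.73, 0.57 and 0.12 and were not called, and TNPR moved from −0.60 without its replicate 1 to 1.65 without its replicate 2, where it was called. BUTN was called in the fit of the 2 groups alone and without either TNPR library.

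Other early response transcripts also differed between replicates, and EGR1, EGR2, EGR3 and IER2 are named here after their values were seen. FOS, a subunit of AP-1, measured 254 and 99.7 CPM in TNPR and 158 and 115 CPM in TNBU, against 272 and 240 CPM in PRTN. EGR1, an early zinc finger factor, measured 410 and 184 CPM in TNPR and 392 and 263 CPM in TNBU. IER2, another early response gene, measured 156 and 84.5 CPM and 133 and 92.9 CPM. EGR3 measured 19.6 and 1.695 CPM in TNPR and 7.25 and 1.76 CPM in TNBU. EGR2 measured 22.5 and 5.28 CPM in TNPR and 11.7 and 5.54 CPM in TNBU. Replicate 1 was the higher library in all of these pairs, as it was for DUSP2, but this order was not particular to TNPR and TNBU: FOS, EGR1 and IER2 were also higher in replicate 1 of TN, PRTN and BUTN, EGR1 at 573 and 436 CPM in PRTN. FOSB, another AP-1 subunit, ran the other way in TNBU, at 21.3 and 30.1 CPM. DUSP1 was split far less in TNPR and DUSP5 hardly at all. The part of this difference between replicates in the values of DUSP2 was not tested.

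**Figure D3:**
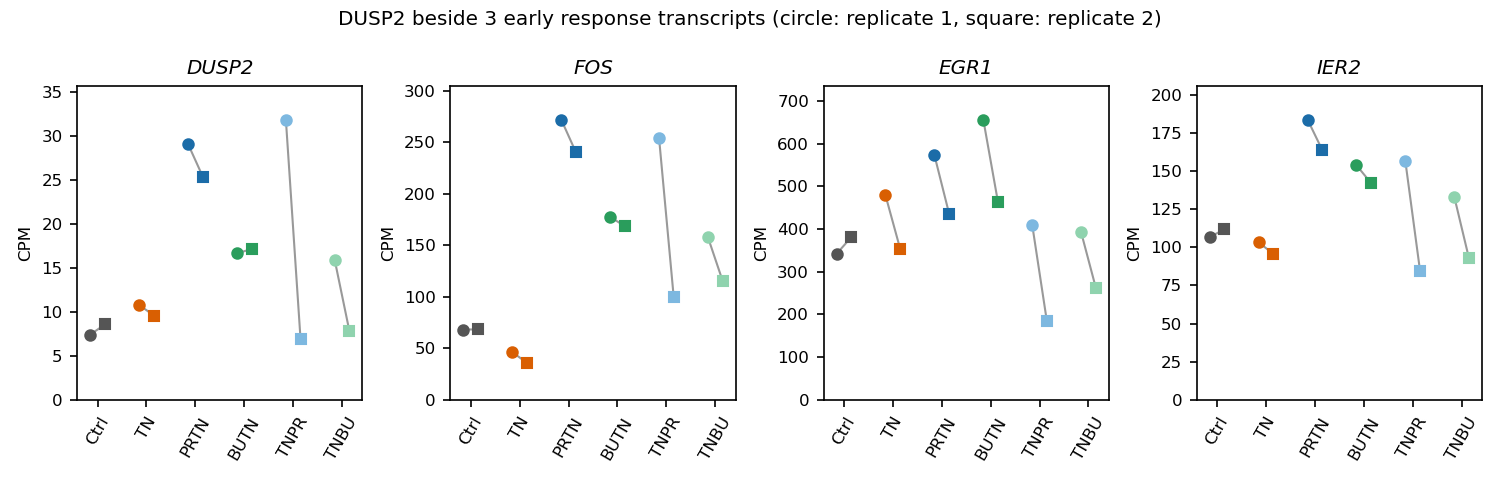
CPM (linear axes from 0) of DUSP2, FOS, EGR1 and IER2 in the 12 libraries, with circles for replicate 1, squares for replicate 2 and a line joining the pair. In TNPR, replicate 1 is above replicate 2 for all 4 transcripts, from 31.9 against 6.91 CPM for DUSP2 to 156 against 84.5 CPM for IER2.

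DUSP7, the second cytoplasmic phosphatase of ERK, measured 18.9 and 19.4 CPM in Ctrl, 21.9 and 24.6 CPM in TN and 29.5 to 34.6 CPM in the SCFA libraries. Its log2 fold changes against TN were 0.50, 0.48, 0.42 and 0.37 (SE 0.09 in each), each with an adjusted p under the limit in limma-voom and each under 1.5-fold. Scaled by library size alone, the first 3 were called, at 0.65, 0.63 and 0.59. Against Ctrl it was called in all 4 groups, at 0.77, 0.75, 0.69 and 0.65. DUSP10, which had risen with TNF-α alone, measured 25.7 to 30.2 CPM in the 8 SCFA libraries, against 29.5 and 30.8 CPM in TN, and was called in none of the 4 contrasts with TN. Its log2 fold changes against TN were −0.13, −0.02, −0.15 and −0.08, with 95% intervals that together ran from −0.33 to 0.15, and with library size alone they were 0.02 to 0.13. Against Ctrl they were 0.76, 0.87, 0.74 and 0.80, all called. DUSP8, a phosphatase of JNK and p38, measured 22.3 to 24.5 CPM in Ctrl, 28.8 to 29.6 CPM in TN and at least 28.0 CPM in every SCFA library. It was not called in any of the 11 contrasts, and its expected counts were not whole numbers. Its pseudogene DUSP8P5 held 19.7 to 65.9 counts, and whether reads were shared between them was not tested.

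Against Ctrl, which sets SCFA and TNF-α together beside untreated cells, PRTN had 7 of these 9 members higher and 1 lower, all but DUSP8, where 22.6% of all genes were called higher and 16.9% lower. BUTN, TNPR and TNBU each had 6 higher and 1 lower, all but DUSP2 and DUSP8. The shares of all genes were 22.0% higher and 14.9% lower for BUTN, 23.6% and 16.8% for TNPR, and 23.6% and 16.5% for TNBU. The median log2 fold change of the 9 was 0.96, 0.87, 0.74 and 0.67, and that of all genes was 0.08, 0.06, 0.09 and 0.07. These contrasts share the Ctrl libraries.

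The order of treatment made no difference that passed the test. In TNPR against PRTN, 0 of the 10 members were called, where 0.0534% of all genes were called higher and 0.107% lower. In TNBU against BUTN, 0 were called as well, against 0.0945% and 0.173%. At an unadjusted p under 0.05 in limma-voom stood DUSP1, DUSP5 and DUSP6 in TNPR against PRTN, with log2 fold changes of −0.25, −0.39 and −0.27 and adjusted p of 0.352, 0.389 and 0.303, and 0 members in TNBU against BUTN. Neither edgeR nor DESeq2 called a member. For DUSP6 the interval of the difference was −0.47 to −0.07 in the propionate pair and −0.34 to 0.08 in the butyrate pair. For DUSP2 it was −1.84 to 0.15, and that member was called without TNPR replicate 1, at −1.99. For DUSP16 it was −0.19 to 0.21 and −0.27 to 0.13.

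Levels between members were compared per kilobase of exon (GENCODE release 44). In Ctrl, DUSP1 was highest, at 65.4 CPM per kb, and DUSP16 (7.97), DUSP14 (7.87) and DUSP5 (7.10) followed, the libraries of DUSP16 overlapping those of the other two. DUSP10 measured 5.77, DUSP8 4.72, DUSP6 4.22, DUSP2 4.14 and DUSP7 3.38 CPM per kb, and DUSP4 was listed at 0. The libraries of DUSP6 and DUSP2 overlapped there. In PRTN the order after DUSP1 (127 CPM per kb) was DUSP5 at 32.2, DUSP6 at 26.2, DUSP14 at 17.8, DUSP2 at 14.1, DUSP10 at 9.75, DUSP8 at 6.05, DUSP7 at 5.79, DUSP16 at 3.82 and DUSP4 at 0.0694 CPM per kb. DUSP16 thus moved from the second place to the ninth, and DUSP6 from the seventh to the third. The libraries of DUSP8 and DUSP7 overlapped in PRTN.

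**Figure D4:**
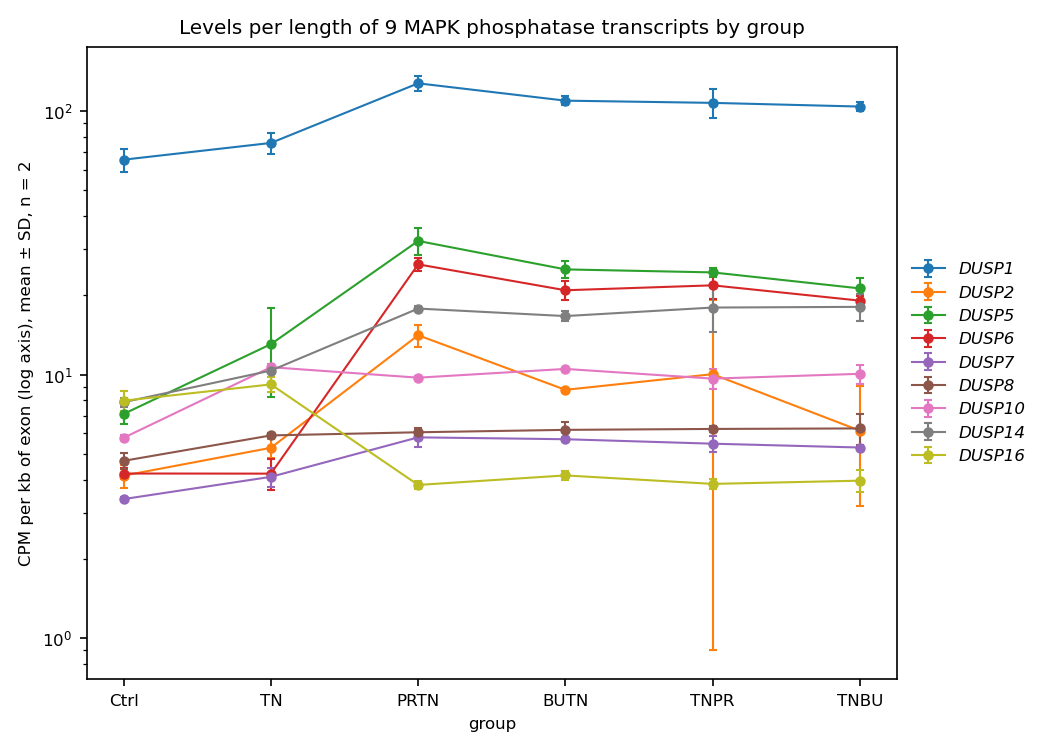
Mean CPM per kb of exon (log axis) with SD (n = 2) of 9 phosphatase transcripts in the 6 groups. DUSP4 is left out because it is at 0 in Ctrl, the line of DUSP6 crosses those of DUSP10, DUSP14 and DUSP16, among others, between TN and PRTN, and the widest error bar is that of DUSP2 in TNPR.

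Across the 12 libraries, with log2 CPM of 14984 genes that averaged at least 1 CPM, the transcripts most like DUSP6 in pattern were CLSTN2 (Pearson r = 0.9965), DENND2C and SNAI1, and those most like DUSP16 were JAK1 (r = 0.9962), EPHB2 and PRMT1. DUSP10 was most like INHBA (r = 0.9782), CCND1 and CDV3. DUSP1 was most like ZNF468 (r = 0.9816), MFAP3L and JUN, and DUSP2 most like FAM53C (r = 0.9502), IER2 and ZFP36. DUSP5 came closest to ZNF284 (r = 0.9801), ALKBH8 and PMAIP1, DUSP14 to MYL12B (r = 0.9961), RAB4A and TMOD1, and DUSP7 to KDELR3 (r = 0.9942), SIAH2 and CCL20. DUSP8 came closest to TOPORS-AS1 (r = 0.9175), DLGAP4 and TMEM159, and DUSP4 to TERF2IP (r = 0.9845), SETD3 and ARFIP2. Among the members, DUSP1 and DUSP5 had the highest r (0.966) and DUSP6 and DUSP16 the lowest (−0.982). These values are descriptions over libraries that share their treatment.

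The inhibitors that act higher up in the ERK pathway, of the Sprouty, SPRED and SEF families and the RAS GTPase activators, were in part higher with an SCFA as well. Of 10 such genes, 0 were called in TN against Ctrl, and 6 were called higher in PRTN and 5 in each of BUTN, TNPR and TNBU against TN, with 0 lower, where 23.9%, 23.1%, 24.9% and 25.0% of all genes were called higher. The 5 called in all 4 groups were IL17RD, SPRY4, SPRED3, SPRY1 and SPRY3. IL17RD, which encodes SEF, measured 1.60 and 1.70 CPM in TN and 6.54 to 9.60 CPM in the SCFA libraries, with log2 fold changes of 2.46, 2.36, 2.23 and 2.23. SPRY4, a Sprouty inhibitor of RAS to ERK signalling, measured 3.76 and 3.27 CPM in TN and 7.73 to 13.4 CPM with an SCFA, at log2 fold changes of 1.84, 1.74, 1.32 and 1.19. SPRED3 stood at 1.20, 1.05, 0.92 and 0.75, and SPRY2 was called in PRTN alone (0.80). SPRED1, SPRED2, RASA1 and NF1 were not called. The list's median was 0.75, 0.58, 0.65 and 0.46.

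**Figure D5:**
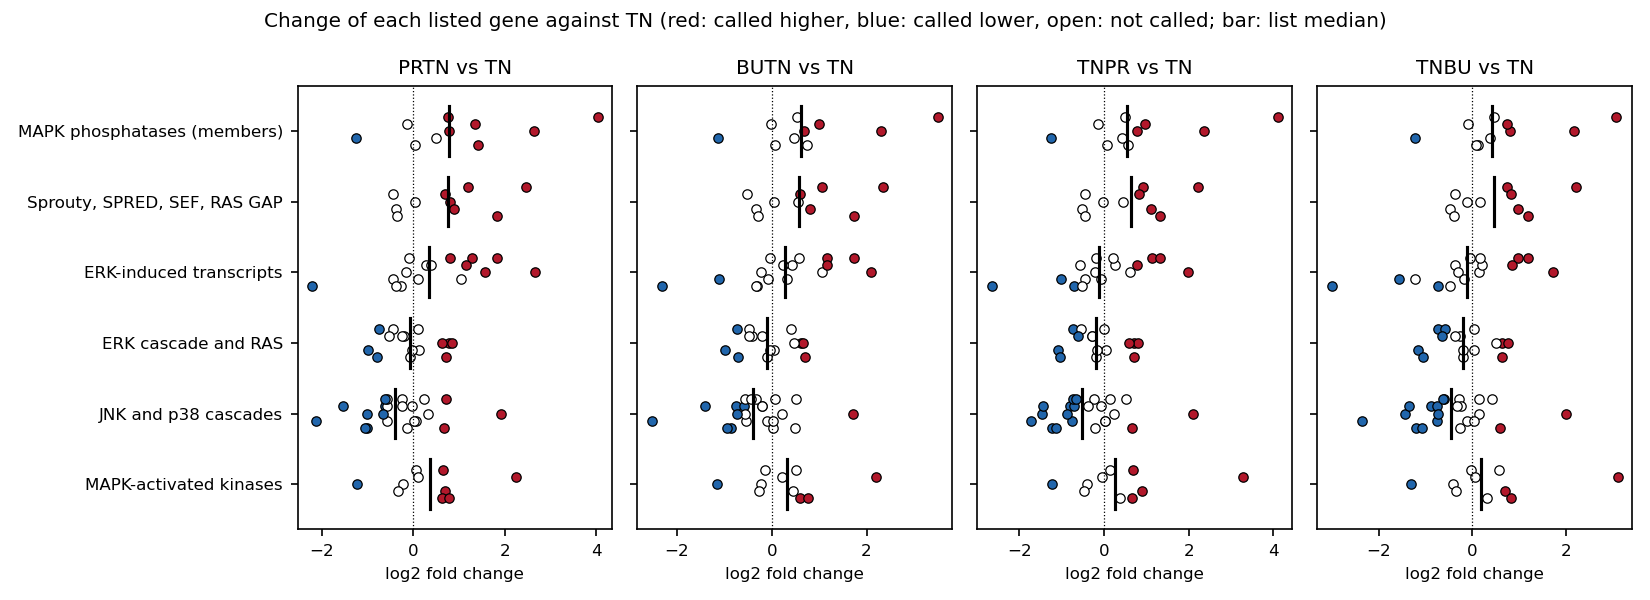
Log2 fold change against TN of each gene in 6 lists (members, upstream inhibitors, ERK-induced transcripts, ERK cascade, JNK and p38 cascades, MAPK-activated kinases), in red where called higher, blue where lower and open where not called, with a bar at the list median. The inhibitor list has 6, 5, 5 and 5 red points and 0 blue ones, and the JNK and p38 list has 8, 7, 11 and 11 blue points.

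Transcripts that ERK signalling is known to induce moved in different directions. Of 16, 2 were called higher in TN than in Ctrl, FOSL1 (0.76) and CCND1 (0.64), and 0 lower. The FOSL1 call was lost in 5 of 21 alternatives (adjusted p up to 0.182), among them without either Ctrl replicate or TN replicate 1, and the CCND1 call with library size alone and at a fold change over 2. Against TN, 6, 4, 4 and 4 were higher and 1, 2, 3 and 3 lower in PRTN, BUTN, TNPR and TNBU, and the shares of all genes are those given above. FOS, IER3, ETV4 and SPRY4 were higher in all 4 groups, FOS at 2.65, 2.09, 1.97 (1.25 without TNPR replicate 1 and 2.64 without TNPR replicate 2) and 1.73, IER3, an early survival gene, at 0.78 to 1.17, and ETV4, an ETS factor, at 0.98 to 1.28. FOSL1, an AP-1 subunit held up by lasting ERK activity, was lower in all 4. It measured 42.2 and 49.2 CPM in Ctrl, 84.7 and 70.4 CPM in TN and 8.60 to 18.3 CPM with an SCFA, and its log2 fold changes were −2.22, −2.31, −2.66 and −3.01. The list's median was 0.34, 0.28, −0.13 and −0.11.

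Among the kinases, MAPK3, an ERK gene, was called higher in all 4 SCFA groups, at 0.71, 0.69, 0.71 and 0.63. All 4 calls were lost without TN replicate 1, at 0.50, 0.48, 0.49 and 0.43, and that in TNBU also without TNBU replicate 2. MAPK8, a JNK gene, differed from TN by 0.02 to 0.04 and MAPK14, a p38 gene, by 0.14 to 0.32, and neither was called. Of 15 ERK cascade and RAS genes, 0 were called in TN against Ctrl. MAP2K2, GRB2 and MAPK3 were higher in all 4 SCFA groups, although MAP2K2 was not called in BUTN without TN replicate 1. SOS1, SOS2 and ARAF were lower in all 4, SOS1, a RAS exchange factor, at −0.99, −0.99, −1.08 and −1.15. Of all genes, 18.4% were higher and 11.9% lower in all 4. Of 22 genes of the JNK and p38 cascades, 1 was higher and 1 lower in TN than in Ctrl. Against TN 3, 1, 2 and 2 were higher, where 23.9%, 23.1%, 24.9% and 25.0% of all genes were called higher. The list had 8, 7, 11 and 11 lower, where 16.7%, 14.8%, 16.9% and 16.5% of all genes were called lower, with list medians of −0.42, −0.39, −0.52 and −0.46. MAPK13, a p38 gene, was lower at −1.55 to −1.36, and MAPK10, a JNK gene, at −2.53 to −1.73. MAP3K4, MAP3K1 and MAP2K4 were also lower in all 4, and MAP2K6, a p38 activating kinase, was the gene of this list higher in all 4. MAP2K6 measured 4.64 and 3.48 CPM in Ctrl, 1.82 and 1.87 CPM in TN and 5.66 to 8.27 CPM with an SCFA. It was called lower in TN against Ctrl (−1.12, limma-voom adjusted p = 0.0178, lost in 4 of 21 alternatives, among them without Ctrl replicate 1 or either TN replicate, where the highest adjusted p was 0.158) and higher against TN, at 1.72 to 2.10 in the 4 groups.

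MAP3K8, the kinase that links TNF receptors to ERK, moved the other way. It was counted among the 22 genes of the JNK and p38 list above. There it was the gene higher in TN than in Ctrl, and it was among those lower in every SCFA group. It measured 23.5 and 21.7 CPM in Ctrl, 38.1 and 38.6 CPM in TN, 18.4 and 19.4 CPM in PRTN, 22.3 and 23.5 CPM in BUTN, 15.2 and 12.6 CPM in TNPR, and 15.0 and 13.5 CPM in TNBU. Its log2 fold change was 0.77 in TN against Ctrl (limma-voom adjusted p = 0.000552) and −1.02, −0.74, −1.47 and −1.43 against TN. Of 10 MAPK-activated kinases, 0 were called in TN against Ctrl. Against TN, 5, 3, 4 and 3 were higher in PRTN, BUTN, TNPR and TNBU, where 23.9%, 23.1%, 24.9% and 25.0% of all genes were. In each group 1 was lower, MAPKAPK5, at −1.30 to −1.16, beside 16.7%, 14.8%, 16.9% and 16.5% of all genes. RPS6KA2, an ERK-activated ribosomal S6 kinase, and RPS6KA5 were higher in all 4, RPS6KA2 at 2.25, 2.21, 3.28 and 3.11 and RPS6KA5 at 0.66 to 0.82, not called in BUTN and TNPR without TN replicate 2.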

How the data were processed

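Stranded mRNA libraries of 12 HK2 samples were read by the authors with STAR (2.6.1a in the submitters' processing notes) on GRCh38 and counted with RSEM on GENCODE release 26; the RSEM version and strand setting are not given in the sources used here. Deposited values were RSEM's expected counts of each gene, estimated counts without scaling to library size, 19.3% of them not whole. They were used unrounded in limma 3.58.1 (R 4.3.3) with TMM factors from edgeR 4.0.16, voom weights and 1 mean for each of 6 groups. The filter asked that the geometric mean of count plus 1 over the libraries, minus 1, reach 1. Calls needed more than a 1.5-fold change with adjusted p below 0.05. The code was tested on simulated data.

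Members, pathway lists and tests were chosen with earlier results of these data known. Groups came from each library's own label. The text names the 10 members, MAPK3, MAPK8 and MAPK14, per list up to 3 called genes of largest change in TN against Ctrl and up to 3 called alike in all contrasts with TN, genes of small counts, and the 3 genes of highest r with each member; some genes under this rule are not reported here. EGR1, EGR2, EGR3, IER2 and genes named as not called were chosen after their values were seen. Propionate and butyrate were not tested against each other. Alternatives were edgeR's quasi-likelihood test and DESeq2 1.42.0 on rounded counts, other scalings and filters, fits of the 2 groups compared, a replicate block, a fold change over 2 and leaving out each library. With 2 libraries a group, p-values measure the spread between these samples. Replicates differed more than sampling noise (chi-square per gene 3.17 to 18.1). Gene positions and exon lengths came from GENCODE release 44, and promoters from RefSeq GRCh38.p14.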

Additional observations from a re-analysis of the deposited data

Results flagged for a closer look

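Among the pathway genes, in lists of 7 to 22 tested genes each, 3 differed by a test of the SCFA given after TNF-α against the SCFA given before it. That test compares the effects of the same SCFA dose in 2 orders and also in collection time. Over all genes, 0.0534% were called higher and 0.107% lower in TNPR against PRTN, and 0.0945% and 0.173% in TNBU against BUTN. PTPN7, a tyrosine phosphatase of ERK and p38, was lower in the later groups, with a log2 fold change of −1.44 in TNPR against PRTN (limma-voom adjusted p = 0.0469) and −1.71 in TNBU against BUTN (adjusted p = 0.00451). Its CPM was 2.32 and 2.01 in PRTN, 0.948 and 0.640 in TNPR, 4.19 and 4.31 in BUTN, and 1.58 and 1.06 in TNBU. MAP3K8 was lower in TNBU than in BUTN, at −0.69 (limma-voom adjusted p = 0.0104), and its value of −0.45 in TNPR against PRTN did not pass (adjusted p = 0.125). RPS6KA2 was higher in TNPR than in PRTN, at 1.03 (limma-voom adjusted p = 0.0474), and its value of 0.90 in TNBU against BUTN did not pass (adjusted p = 0.0572). Whether the propionate and butyrate pairs differ from each other was not tested. Each group has 2 libraries, too few to test for a library far from the others.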

How the results depend on the processing

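Over all alternatives, 2230 of 2299 member values kept their side of the threshold, 51 lost their call, 18 gained one and 0 called values reversed; uncalled values, such as those of DUSP10 and DUSP2 against TN, could change sign. The number of members called in TN against Ctrl, 2, became 1 with library size alone, with the loosest filter and in the fit of the 2 groups, and 0 at a fold change over 2, and was 1 to 2 with a library left out, the call of DUSP5 being the one lost. At a fold change over 2, the members called against TN fell from 5 to 3 in BUTN, TNPR and TNBU, and those against Ctrl from 8 to 4 in BUTN and to 5 in TNPR and TNBU. With a library left out, TNBU against TN had 3 to 5 members called, the lowest without TN replicate 2, and TNPR against PRTN 0 to 1. Counts in this part include DUSP4, and leaving it out, chosen after seeing the data, lowered each count of an SCFA group against TN or Ctrl by 1. The DUSP4 call in TNBU against TN was lost without TN replicate 2. DUSP4 could not be fitted with the literal geometric mean, which removes any gene with a 0.

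Library size alone moved the median of all genes against TN from 0.09, 0.08, 0.12 and 0.09 to 0.24, 0.23, 0.29 and 0.29 and the share of calls that were upwards from 58.9%, 60.9%, 59.6% and 60.2% to 68.5%, 71.2%, 69.8% and 72.0%; in TN against Ctrl this share went from 58.9% to 44.3%, and to 86.8% in the fit of the 2 groups (79 higher and 12 lower, against 186 and 130). In TNBU against BUTN it went from 35.4% to 45.9% with library size alone. With the replicate block the members called were 2 in TN against Ctrl, 7 in PRTN against TN and 5 in BUTN, TNPR and TNBU against TN, as without it; deviations of same-numbered libraries correlated at −0.0791 to 0.24 over 15 pairs of groups, 1 of them above 0.1, so the numbers were not read as pairs.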

Other observations

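Of 16 other dual specificity phosphatases, outside the 10 members above, 15 were tested and 0 were called in TN against Ctrl. Some of them, such as DUSP3 and DUSP9, also act on MAP kinases. DUSP26 and DUSP27 had 0 counts in TN and passed the filter on low counts through other groups, so they are left out of the counts against TN, a choice made after their values were seen. Of the other 13, 4 were called higher in each SCFA group and 4, 3, 3 and 3 lower in PRTN, BUTN, TNPR and TNBU, where 23.1% to 25.0% of all genes were called higher and 14.8% to 16.9% lower. DUSP13, DUSP15 and DUSP18 were higher in all 4 groups and DUSP3, DUSP12 and DUSP28 lower. DUSP3, which acts on ERK and JNK, was the most abundant of these, at 95.7 ± 2.75 CPM in TN and 46.4 ± 0.182 in PRTN, 49.7 ± 1.75 in BUTN, 46.2 ± 2.83 in TNPR and 51.7 ± 2.84 CPM in TNBU (SD, n = 2 each), with log2 fold changes of −1.05 to −0.89. DUSP15 measured 1.27 ± 0.432 CPM in TN and 3.84 ± 0.818 to 5.12 ± 0.477 CPM in the SCFA groups (SD, n = 2 each). DUSP26 was listed at 0 in Ctrl and TN and averaged 0.310 to 0.478 CPM with an SCFA. DUSP9, a cytoplasmic ERK phosphatase, rose in PRTN, BUTN and TNBU, at log2 fold changes of 0.67, 0.68 and 0.64, and its value in TNPR, 0.57, was under the fold limit.

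Of 8 phosphatases of MAP kinases from other families, 7 were tested, 0 were called in TN against Ctrl, and PTPN7, PTPRR and PPM1D were higher in all 4 SCFA groups, with 0 lower, beside 18.4% of all genes higher in all 4. PTPRR, a tyrosine phosphatase of ERK, had log2 fold changes of 1.19, 1.48, 1.80 and 2.02, and its call in PRTN was lost without either TN replicate or PRTN replicate 1 (limma-voom adjusted p up to 0.144) and that in BUTN without TN replicate 2. PPM1D, a serine and threonine phosphatase of p38, had 0.67 to 0.87, and was called in PRTN alone without TN replicate 2. PTPN7 measured 0.223 and 0.251 CPM in TN and 0.640 to 4.31 CPM with an SCFA.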
